A study of Mus musculus with 4 samples.

Results

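The 10 genes described here, Gpam, Agpat2, Agpat3, Lpin1, Dgat1, Dgat2, Mogat1, Gpd1, Pck1 and Bscl2, build triglyceride or help to store it in lipid droplets. They were taken by gene symbol from the 19505 genes with a named probe set on a Clariom S Mouse array, an Affymetrix design read in 1 colour. All 10 had a probe set, 1 each, and all 10 lay above the floor on low values defined below, as did 11703 of the 19505 genes. RNA came from epididymal fat, the depot beside the epididymis, of male mice, and 4 arrays were made, 1 for each group. GW-SA received GW4869, an inhibitor of neutral sphingomyelinase used to block the release of extracellular vesicles, and had synergist ablation, in which the helpers of a muscle are cut away so that it carries more load. GW-Sham received GW4869 and had sham surgery. Veh-SA received DMSO, the vehicle, and had synergist ablation. Veh-Sham received DMSO and had sham surgery. The sources used here do not give strain, age, dose, time or how many animals stand behind an array.

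Fat cells store fatty acids by joining 3 of them to a glycerol backbone. The backbone enters as glycerol-3-phosphate, which adipocytes make from glucose or, by glyceroneogenesis, from smaller molecules, since they use little free glycerol. Acyltransferases of the mitochondrial outer membrane and the endoplasmic reticulum then add fatty acids in turn, a phosphatase removes the phosphate, and a diacylglycerol acyltransferase adds the last fatty acid. The product is packed into droplets at sites marked by seipin, the protein of Bscl2.

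Upstream sequences are shown for 4 of the genes because they stand for the patterns described below: Gpam was highest on the Veh-SA array, Agpat2 and Mogat1 were lowest on the GW-SA array, and Pck1 supplies the backbone. Each is the 250 bases before the most upstream listed start, read 5′ to 3′ on the gene's strand from RefSeq, build GRCm38.p6. Gpam lies at chr19:55127239-55127488 on the minus strand, Agpat2 at chr2:26604418-26604667 on the minus strand, Mogat1 at chr1:78510810-78511059 on the plus strand and Pck1 at chr2:173152823-173153072 on the plus strand.
Gpam: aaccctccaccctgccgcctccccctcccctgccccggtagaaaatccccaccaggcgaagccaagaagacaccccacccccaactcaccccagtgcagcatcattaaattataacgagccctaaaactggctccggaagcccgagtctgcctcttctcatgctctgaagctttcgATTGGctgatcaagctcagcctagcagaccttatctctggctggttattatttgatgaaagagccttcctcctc
Agpat2: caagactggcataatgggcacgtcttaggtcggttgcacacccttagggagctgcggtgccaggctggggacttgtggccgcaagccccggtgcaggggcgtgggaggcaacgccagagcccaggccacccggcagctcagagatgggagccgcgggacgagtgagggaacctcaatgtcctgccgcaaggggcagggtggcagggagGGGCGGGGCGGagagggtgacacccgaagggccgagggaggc
Mogat1: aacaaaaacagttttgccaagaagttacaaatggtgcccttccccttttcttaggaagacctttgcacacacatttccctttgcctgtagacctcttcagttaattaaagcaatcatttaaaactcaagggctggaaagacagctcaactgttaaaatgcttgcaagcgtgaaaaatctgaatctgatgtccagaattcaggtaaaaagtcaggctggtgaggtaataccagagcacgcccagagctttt
Pck1: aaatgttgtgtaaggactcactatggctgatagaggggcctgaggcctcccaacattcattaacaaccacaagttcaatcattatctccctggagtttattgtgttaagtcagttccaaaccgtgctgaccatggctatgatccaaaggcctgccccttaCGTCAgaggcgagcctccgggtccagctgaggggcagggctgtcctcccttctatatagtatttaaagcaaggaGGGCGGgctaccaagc
Capitals mark any match, on either strand, to 7 motifs: CACGTG (the E-box), CCAAT (the CCAAT box), GGGCGG (the GC box), TATAAA (the TATA box), AGGTCA (the half-site of nuclear receptors), TGACG (the half-site of the cAMP response element) and TCACNCCAC (a sterol response element). Counted back from -1, the base just before the listed start, Gpam held a CCAAT box whose leftmost base is at -74. Agpat2 held GC boxes at -42 and -37, which share a base. Pck1 held a cAMP response element half-site at -90 and a GC box at -16, and the Mogat1 window held a match to 0 of these letters. Of 27025 promoters of this length, 34.5% held a CCAAT box, 33% a GC box, 17.8% the cAMP response element half-site, 13.8% the nuclear receptor half-site, 13% the TATA box, 6.04% the E-box and 1.03% the sterol element. The RefSeq promoter table used here was matched by symbol for 7 of the 10 genes. Across those 7, Bscl2 also held 2 CCAAT boxes and Lpin1 a nuclear receptor half-site. A match describes letters and does not show binding.

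Marker genes showed fat on every array and tissue of the male reproductive tract on some. Values are log2 as deposited, so 1 unit is a doubling on that scale. The 15 measured markers of mature adipocytes had medians of 16.89 on GW-SA, 17.14 on GW-Sham, 16.98 on Veh-SA and 16.64 on Veh-Sham, with each marker at or above 9.74. Adipoq, which encodes the fat hormone adiponectin, stood between 19.34 and 19.67. The 15 sperm and testis markers had a median of 14.79 on Veh-Sham, where 13 exceeded the 95th percentile of the negative control rows, and medians of 4.34, 3.13 and 3.84 on GW-SA, GW-Sham and Veh-SA, where 0 did. Prm1 and Prm2, which pack sperm DNA, stood at 17.40 and 17.92 on Veh-Sham. The 13 epididymal markers had a median of 13.68 on GW-SA, where 9 exceeded that percentile, against 4 on Veh-Sham and 0 on GW-Sham and Veh-SA. Gpx5, a peroxidase of the epididymis, read 19.53 on GW-SA. Another 6 genes, of the distal epididymis and the vas deferens, a set first put together after values of these arrays had been seen, had high readings in both sham groups, with medians of 12.87 on GW-Sham and 13.15 on Veh-Sham, against 5.33 on GW-SA and 3.19 on Veh-SA. Serpina1f, one of them, read 15.03 on GW-Sham and 16.09 on Veh-Sham. Veh-SA was thus the single array on which 0 genes of these 3 tract lists passed the control percentile. How far tract RNA moved the values of the 10 genes was not tested. In RNA from whole tissue, fewer adipocytes and less RNA per adipocyte cannot be told apart.

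**Figure D1:**
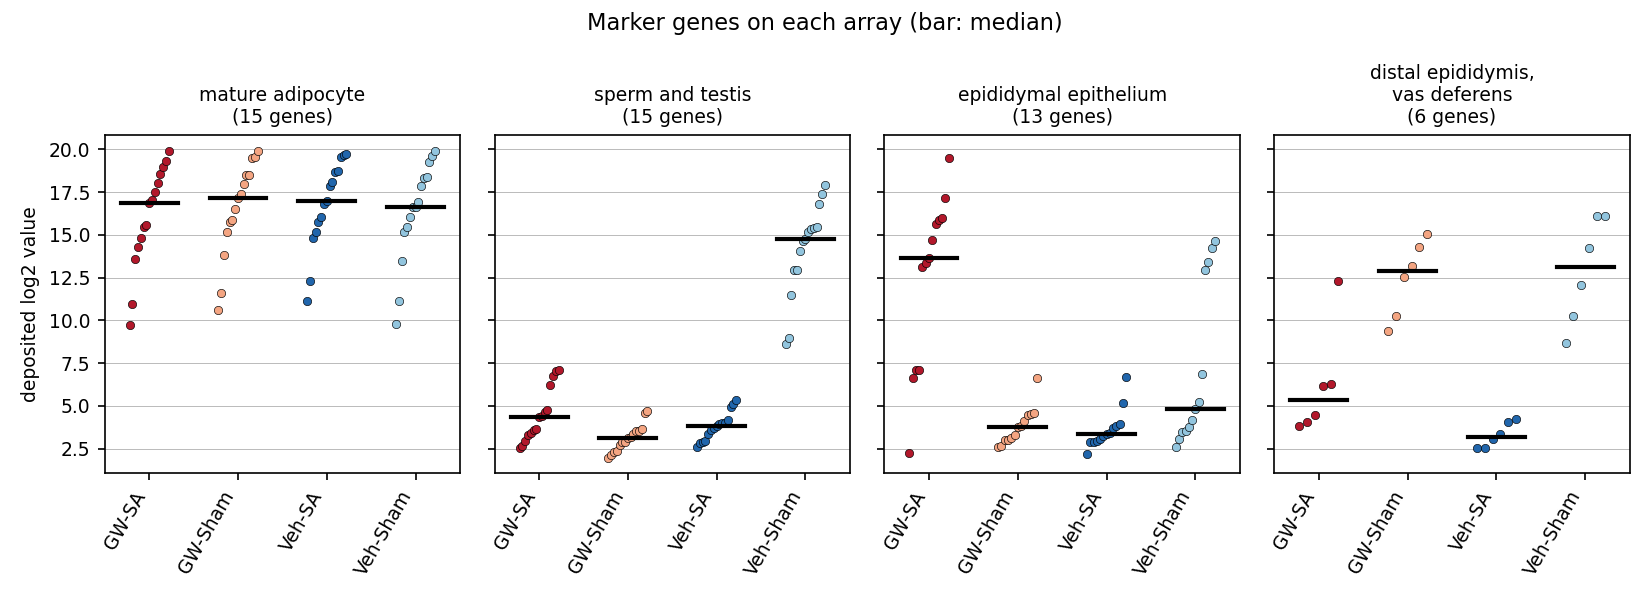
Deposited log2 values of marker genes (points, sorted within an array) on the 4 arrays, with the list median as a bar. Adipocyte medians lie between 16.64 and 17.14 on the 4 arrays, sperm markers are high on Veh-Sham (median 14.79) and epididymal markers on GW-SA (median 13.68).

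Each group is 1 array, so values carry no error from replicates and no test was possible, and precision is limited by how few arrays there are. A gene is called higher or lower where 2 arrays differ by at least 1.5-fold, which is 0.58 on the log2 scale. Such a call describes 2 arrays. The floor was the 40th percentile of gene means, log2 4.67. The 95th percentile of the negative control rows was 9.01 to 9.27 on the 4 arrays, and that of the antigenomic background probes 6.34 to 6.40. Mogat1 on GW-SA, at 7.76, lay under the first of these, and Dgat1 and Mogat1 on Veh-Sham, at 9.18 and 9.34, lay close to it, so differences from these readings are less sure than those of the other 8 genes. Overload under vehicle and GW4869 in sham mice share the Veh-Sham array. Overload under GW4869 shares GW-SA with the comparison of GW4869 in overloaded mice and GW-Sham with that of GW4869 in sham mice. Overload under vehicle shares Veh-SA with GW4869 in overloaded mice. A high reading on Veh-SA thus enters both, as higher in the first and as lower in the second.

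Pck1 and Gpd1 supply the glycerol backbone. Pck1, the cytosolic phosphoenolpyruvate carboxykinase that drives glyceroneogenesis, read 16.83 on GW-SA, 16.72 on GW-Sham, 17.48 on Veh-SA and 16.78 on Veh-Sham. It was high on Veh-SA alone, and its other 3 readings lay within 0.11 of each other. Gpd1, which reduces dihydroxyacetone phosphate to glycerol-3-phosphate, read 13.36 on GW-SA, 14.25 on GW-Sham, 14.60 on Veh-SA and 14.05 on Veh-Sham. GW-SA was the low array for this gene.

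Gpam, Agpat2 and Agpat3 add the first fatty acids. Gpam encodes the glycerol-3-phosphate acyltransferase of the mitochondrial outer membrane, the entry step, and read 15.04 on GW-SA, 15.09 on GW-Sham, 15.95 on Veh-SA and 14.12 on Veh-Sham. The vehicle arrays held its highest and its lowest reading, with both GW4869 arrays between them. Agpat2, the main lysophosphatidate acyltransferase of fat, whose loss in people causes congenital generalized lipodystrophy, read 14.58 on GW-SA, 16.17 on GW-Sham, 16.02 on Veh-SA and 16.01 on Veh-Sham. The other 3 readings were within 0.16 of each other and GW-SA stood below them. Agpat3, a related enzyme that also acylates lysophospholipids, read 15.85 on GW-SA, 15.88 on GW-Sham, 16.00 on Veh-SA and 16.65 on Veh-Sham. Here Veh-Sham, the array with sperm RNA, was the high one.

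Lpin1, Mogat1, Dgat1 and Dgat2 act at the later steps. Lpin1, a phosphatidate phosphatase that makes diacylglycerol, varied least of the 10, by 0.68, with 14.52 on GW-SA, 14.89 on GW-Sham, 15.20 on Veh-SA and 15.02 on Veh-Sham. Mogat1, which makes diacylglycerol from monoacylglycerol, varied most, by 2.34, with 7.76 on GW-SA, 9.50 on GW-Sham, 10.10 on Veh-SA and 9.34 on Veh-Sham. The 2 diacylglycerol acyltransferases are not related in sequence, and Dgat2 belongs to the family of Mogat1. Dgat1 read 10.35 on GW-SA, 10.37 on GW-Sham, 11.36 on Veh-SA and 9.18 on Veh-Sham, the order of arrays seen for Gpam. Dgat2 read 14.45 on GW-SA, 16.54 on GW-Sham, 15.86 on Veh-SA and 16.45 on Veh-Sham, so both sham arrays were above both overload arrays. Bscl2, whose protein seipin organises droplet formation, read 12.79 on GW-SA, 13.70 on GW-Sham, 13.98 on Veh-SA and 13.43 on Veh-Sham. Its readings followed those of Gpd1.

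**Figure D2:**
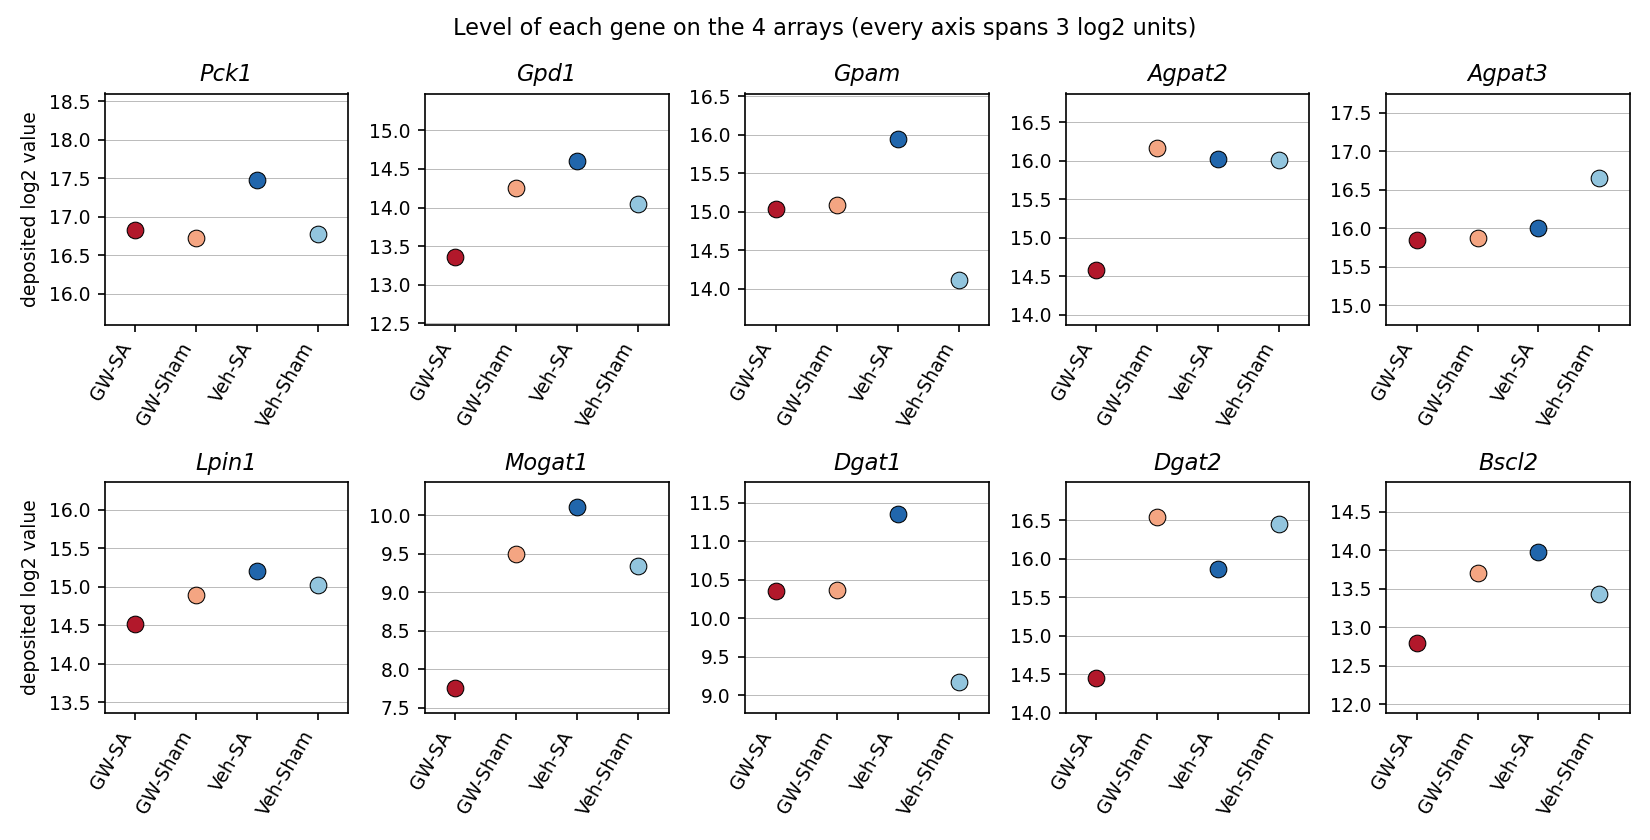
Deposited log2 value of each of the 10 genes (1 panel a gene, each axis spanning 3 log2 units) on GW-SA, GW-Sham, Veh-SA and Veh-Sham, 1 point an array with no error. Agpat2, Dgat2, Mogat1, Gpd1, Bscl2 and Lpin1 are lowest on GW-SA, as is Agpat3 by a small margin. Gpam and Dgat1 are lowest on Veh-Sham and highest on Veh-SA, and Agpat3 is highest on Veh-Sham.

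The 10 profiles over the arrays were alike to differing degrees. Each gene's 4 values were centred on their own mean and genes were set against each other by the root mean square distance over the 4 arrays. Gpd1 and Bscl2 were 0.03 log2 units apart, and Gpam and Dgat1 0.13. Lpin1 lay 0.23 from both Gpd1 and Bscl2 and 0.25 from Pck1. Agpat2 lay 0.28 from Dgat2, 0.32 from both Gpd1 and Bscl2 and 0.35 from Mogat1. The farthest pair of the 10 was Dgat1 and Dgat2, at 1.28. Among 11292 other named genes above the floor, 83 lay within 0.25 of Dgat1, nearest among them H2-Ke6 at 0.040, Tmem88b at 0.070 and Acss3 at 0.076. Around Gpam 241 genes lay that near, led by Foxp2 at 0.042, Zfp790 at 0.048 and Slc1a3 at 0.049. Dgat2 had the fewest of the 4 genes set against all others, 16, led by Lctl at 0.109, Trp53inp2 at 0.121 and Ranbp3l at 0.125. Pck1 had 1619, with Stimate at 0.022 and Pcf11 and Asns at 0.023. The distances rest on 4 arrays and describe likeness on these arrays alone.

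Overload under GW4869 came with lower levels of Dgat2, Mogat1, Agpat2, Bscl2 and Gpd1, while Dgat1 and Agpat3 had differences of -0.02 and -0.04. Dgat2 differed by -2.09 log2 units, 4.24-fold lower in GW-SA, Mogat1 by -1.74, 3.33-fold lower, and Agpat2 by -1.59, 3.01-fold lower. Bscl2 and Gpd1 differed by -0.91 and -0.89. In all 5 of 10 genes were called lower, where 15.3% of all genes above the floor were, and 0 were called higher, where 13.4% of all genes were. Lpin1 had -0.37, Gpam -0.05 and Pck1 0.11. The median over the 10 was -0.63, against -0.04 over all genes. Of all genes above the floor, 0.598% lay as far below 0 as Dgat2, 1.02% as far as Mogat1 and 1.33% as far as Agpat2. Among the 261 genes within 1 log2 unit of the mean level of Dgat2 the share was 1.53%.

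The same array held epididymal RNA, and markers of several cell types of fat were lower on it too. Of 15 adipocyte markers 4 were called lower and 0 higher in GW-SA against GW-Sham, with a median of -0.41. Among all genes 15.3% were lower and 13.4% higher, with a median of -0.04. Of 8 endothelial markers 5 were lower and 0 higher, with a median of -0.73, and of 7 fibroblast and progenitor markers 4 were lower and 0 higher, with a median of -0.80. Both medians are below the -0.63 of the 10 genes. Of 7 macrophage markers 4 were higher and 1 lower, with a median of 0.84. The part of these cell types in the differences of the 10 genes was not tested. When arrays were centred on the median level of the adipocyte markers, which adds 0.24 to each difference, Dgat2 had -1.84, Mogat1 -1.49, Agpat2 -1.34, Bscl2 -0.66 and Gpd1 -0.65. The markers themselves still had a median difference of -0.17 after that centring, with 3 lower and 0 higher. When their whole median difference was taken off instead, which adds 0.41, Dgat2 had -1.68, Mogat1 -1.33 and Agpat2 -1.18, and Bscl2 and Gpd1, at -0.50 and -0.48, were no longer called. The 3 of 10 genes lower then stood beside 5.37% of all genes. The share of higher genes among all calls was 74.1% with the centring and 86.3% with the marker difference off, against 46.7% as deposited. Setting Veh-SA in place of GW-SA leaves out the array high in epididymal markers, but the injections differ. GW-Sham also held the distal tract set at a median of 12.87, against 3.19 on Veh-SA. In this contrast 4 of 10 genes were called higher beside 11.1% of all genes and 1 of 10 lower beside 14.9%. Mogat1, Gpd1 and Bscl2 were above GW-Sham, by 0.61, 0.35 and 0.28, Agpat2 was 0.15 below it and Dgat2 0.68 below it, or 0.52 below when centred on adipocyte markers, which is under 1.5-fold. The low calls for 4 of the 5 genes thus rest on the GW-SA array, while Dgat2, as deposited, was lower in both overload arrays than in both sham arrays. The distal tract set was split in the same way. Its medians were 12.87 on GW-Sham and 13.15 on Veh-Sham, against 5.33 on GW-SA and 3.19 on Veh-SA. The part of distal tract RNA in the pattern of Dgat2 was not tested.

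Overload under vehicle came with higher levels of the entry enzyme and of Dgat1. Dgat1 differed by 2.18 log2 units, 4.55-fold higher in Veh-SA, a difference that 0.273% of all genes above the floor reached, and Gpam by 1.83, 3.56-fold higher, which 0.983% reached. Mogat1 and Pck1 had 0.76 and 0.70. Agpat3 had -0.66 and Dgat2 -0.59, and Agpat2, Lpin1, Gpd1 and Bscl2 lay between 0.01 and 0.55. The 4 of 10 genes called higher stood beside 30.2% of all genes, and the 2 of 10 called lower beside 16.9%. These shares are near the background, and no count over the 10 genes is read from this comparison. The median over the 10 was 0.55, against 0.26 over all genes. It was 0.21 when centred on adipocyte markers, 0.34 with the trend on level removed and 1.02 when centred on all named genes.

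Veh-Sham, the array subtracted here, is the one with sperm RNA. Of 8 endothelial markers 4 were called higher in Veh-SA and 0 lower, with a median of 0.59. Of 15 adipocyte markers 5 were higher and 0 lower, with a median of 0.30. Among all genes 30.2% were higher and 16.9% lower, with a median of 0.26. The share of adipocyte markers called higher was thus near the background. Among macrophage markers 4 of 7 were higher (median 0.71), and among fibroblast and progenitor markers 1 of 7 (median 0.40). Centring on adipocyte markers subtracts 0.34 from each difference and left Dgat1 at 1.84 and Gpam at 1.49, while Mogat1 and Pck1 had 0.42 and 0.36 and were no longer called. The share of higher genes among all calls was 36.2% so centred and 39.5% with the marker difference off, against 64.2% as deposited. With GW-Sham in place of Veh-Sham, an array at background for sperm markers but high in the distal tract set and of the other injection, Dgat1 was 1.00 and Gpam 0.86 higher in Veh-SA, Pck1 0.76 and Mogat1 0.61 higher and Dgat2 0.68 lower, and Agpat3 differed by 0.11. The difference of Dgat1 and Gpam was thus smaller but of the same direction against the other sham array, and that of Agpat3 was not.

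**Figure D3:**
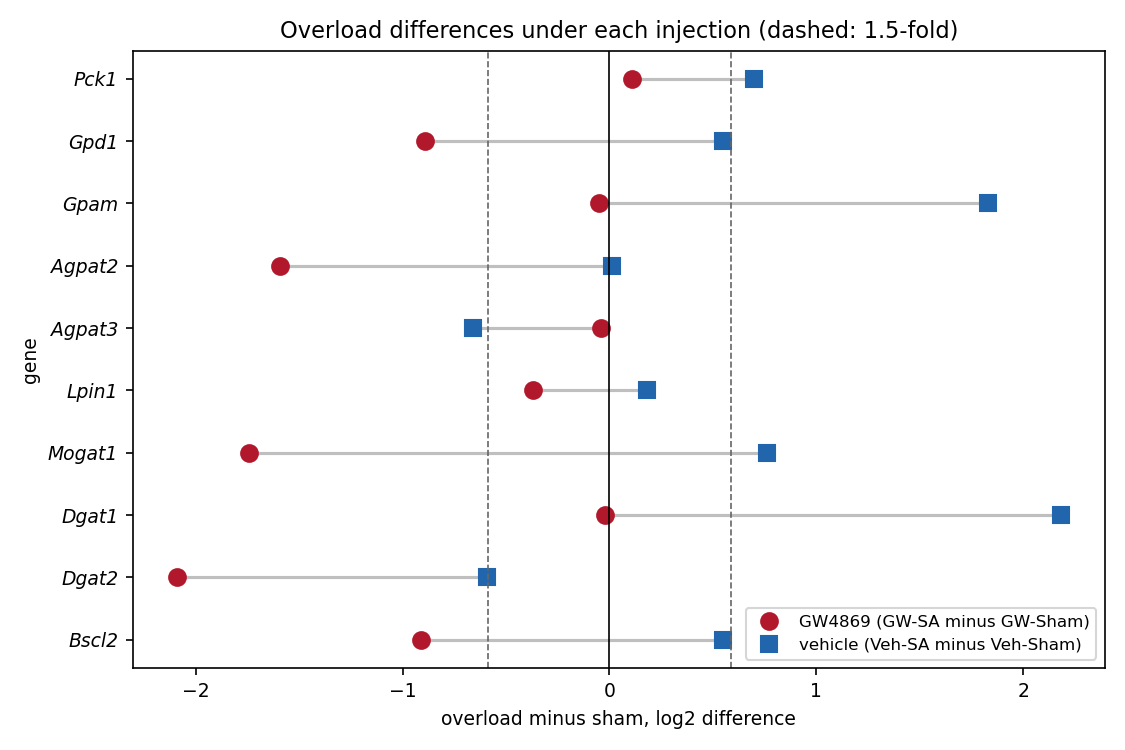
Overload minus sham in log2 units for each gene, under GW4869 (circles) and under vehicle (squares), with dashed lines at 1.5-fold and 1 array a group. Under GW4869 Dgat2, Mogat1 and Agpat2 lie at -2.09, -1.74 and -1.59, and under vehicle Dgat1 and Gpam lie at 2.18 and 1.83.

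The 2 diacylglycerol acyltransferases changed unequally under both injections. The difference of Dgat1 exceeded that of Dgat2 by 2.07 log2 units for overload under GW4869 and by 2.78 for overload under vehicle. A contrast of 2 genes on the same arrays does not move when an array is centred. The contrast was 0.39 for GW4869 in overloaded mice and 1.10 for GW4869 in sham mice. Gpam exceeded Agpat2 by 1.53 under GW4869 and 1.82 under vehicle. Gpam and Dgat1, the first and the last step, differed from each other by -0.03 and -0.35.

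GW4869 in overloaded mice, GW-SA against Veh-SA, came with lower readings throughout. The epididymal markers had a median of 13.68 on GW-SA and 3.35 on Veh-SA, and how far such RNA moved these differences was not tested. All 10 differences were negative and 9 of 10 genes were called lower, where 18.8% of all genes above the floor were, with 0 called higher, where 18.4% of all genes were. Mogat1 had -2.34, a difference that 0.094% of all genes reached, followed by Agpat2 at -1.44, Dgat2 at -1.41, Gpd1 at -1.24 and Bscl2 at -1.19. Dgat1, Gpam, Lpin1 and Pck1 had -1.02, -0.92, -0.68 and -0.65, and Agpat3 had -0.15. The median over the 10 was -1.10, against -0.04 over all genes. Adipocyte markers were also lower here, 8 of 15 being called lower and 0 higher with a median of -0.61. Endothelial markers were lower, 6 of 8 with 0 higher and a median of -0.85, and macrophage markers were higher, 5 of 7 with a median of 1.47. Among fibroblast and progenitor markers 2 of 7 were lower (median 0.08). Their part in the differences of the 10 genes was not tested. With the median difference of the adipocyte markers taken off, which adds 0.61, 4 of 10 genes were called lower beside 3.85% of all genes. Mogat1 then had -1.74, Agpat2 -0.84, Dgat2 -0.80 and Gpd1 -0.63, Bscl2 at -0.58 fell just short, and Dgat1, Gpam, Lpin1, Pck1 and Agpat3 lay between -0.41 and 0.46. Of all calls 92.6% were then higher, against 49.5% as deposited. Centring on the marker level adds 0.09 here and leaves the markers at a median of -0.51, so it does not bear on their difference.

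GW4869 in sham mice, GW-Sham against Veh-Sham, separated fewer of the genes. Dgat1 was 1.19 and Gpam 0.97 higher in GW-Sham, and Agpat3 had -0.77. The other 7 lay between -0.13 and 0.27. The 2 of 10 called higher stood beside 28.9% of all genes and the 1 of 10 called lower beside 14.4%, so the counts are near the background. All 3 called genes had their extreme reading on Veh-Sham. Macrophage markers were higher in GW-Sham, 7 of 7 with a median of 1.73, as were 5 of 7 fibroblast and progenitor markers (median 0.96). Of 8 endothelial markers 2 were higher (median 0.35) and of 15 adipocyte markers 1 (median 0.18), with 0 lower in any of these lists. Their part in the differences of the 10 genes was not tested. Centring on adipocyte markers subtracts 0.50 here, which took Gpam to 0.48 and Lpin1 to -0.63. The share of higher genes among all calls was 26.1% so centred and 52.2% with the marker difference off, against 66.7% as deposited.

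The overload difference under GW4869 was below that under vehicle for 9 of 10 genes, a count of signs not made over all genes. The difference between them was -2.50 for Mogat1, -2.20 for Dgat1, -1.89 for Gpam, -1.60 for Agpat2 and -1.49 for Dgat2. It was -1.46 for Bscl2, -1.44 for Gpd1, -0.59 for Pck1 and -0.55 for Lpin1, and Agpat3 had 0.62. Past 1.5-fold, 8 of 10 were negative beside 36.3% of all genes and 1 of 10 positive beside 21.5%. The median was -1.48, against -0.27 over all genes. It was -1.64 over the fibroblast and progenitor markers, 5 of 7 being negative past 1.5-fold, -1.03 over the endothelial markers, with 7 of 8, and -0.83 over the adipocyte markers, with 11 of 15. Centred on adipocyte markers, which adds 0.59, the median of the 10 was -0.89 and Pck1 and Lpin1 had -0.00 and 0.04. With the marker difference off, which adds 0.83, it was -0.65, with 7 of 10 negative past 1.5-fold beside 10.4% of all genes, and Lpin1 and Pck1 had 0.28 and 0.24. Of all calls 71% were positive so centred and 82.5% with the marker difference off, against 37.2% as deposited.

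Other genes of the route gave a mixed picture. Of 10 further acyltransferases, lipins and the second monoacylglycerol acyltransferase, 7 lay above the floor. In overload under GW4869 2 of these were called higher, beside 13.4% of all genes, and 0 lower, beside 15.3%. Lclat1 had 0.68, Lpin2 0.67 and Agpat4 -0.52. Lpin2 read 6.98 on GW-SA and 6.31 on GW-Sham, a background reading, so its call is unsure. Under vehicle 2 of the 7 were called higher, beside 30.2% of all genes, and 1 lower, beside 16.9%, so these counts are near the background. Gpat3, the other glycerol-3-phosphate acyltransferase prominent in fat cells, was 1.35 higher in Veh-SA, while Agpat1 had -1.05. Agpat5 had 0.73, between 7.14 on Veh-SA and 6.41 on Veh-Sham, which is at the background percentile of that array. Gpat3 read 12.55 on GW-SA, 12.52 on GW-Sham, 13.44 on Veh-SA and 12.08 on Veh-Sham, the order of Gpam save that the 2 GW4869 arrays traded places. Gpat2, a testis form, read 2.52, 2.82, 2.78 and 3.55 on the same arrays, under the floor on each.

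Among genes of glycerol supply 5 of 6 measured lay above the floor. Pcx, the pyruvate carboxylase that feeds glyceroneogenesis, read 12.79 on GW-SA, 14.35 on GW-Sham, 14.77 on Veh-SA and 13.71 on Veh-Sham. It differed by -1.56 for overload under GW4869 and by 1.05 under vehicle. Under GW4869 it was the 1 call among the 5, where 15.3% of all genes were lower. Gpd1l, a relative of Gpd1, had 1.91 under vehicle, a difference from a Veh-Sham reading of 5.84 that lies within background. Gpd2, the mitochondrial enzyme that uses glycerol-3-phosphate and is abundant in testis, read 10.22 on GW-SA, 10.75 on GW-Sham, 11.01 on Veh-SA and 12.88 on Veh-Sham. Gk2, a glycerol kinase of testis, read 3.09, 2.92 and 2.74 on GW-SA, GW-Sham and Veh-SA, and 8.89 on Veh-Sham. Both were high on the array with sperm markers. Aqp7, the glycerol channel of adipocytes, had -0.41 under GW4869 and -0.00 under vehicle.

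Acyl-CoA synthetases, which activate the fatty acids, had 2 of 3 measured members above the floor. Acsl4 read 11.24 on GW-SA, 11.18 on GW-Sham, 9.86 on Veh-SA and 11.38 on Veh-Sham, so Veh-SA was low, and it differed by -1.52 under vehicle and 0.06 under GW4869. Acsl5 had 0.66 and 0.12. Of 9 droplet assembly genes above the floor, 0 were called in either direction for overload under GW4869, beside 15.3% of all genes lower and 13.4% higher. Under vehicle 3 of the 9 were called higher, near the 30.2% of all genes, and 0 lower, beside 16.9%. Fitm2, which partitions triglyceride into droplets, was 1.34 higher in Veh-SA, and the droplet coat genes Plin4 and Plin1 were 0.61 and 0.60 higher. Under GW4869 these 3 had -0.40, -0.42 and -0.38, while Bscl2 had -0.91. The phospholipid branch draws on the same phosphatidate and diacylglycerol. Of its 7 genes 1 was called lower under GW4869, Chpt1 at -0.68, near the 15.3% over all genes. In that comparison 0 were called higher, beside 13.4%, with Cds2 and Cds1 at 0.53 and 0.44. Under vehicle Cept1 and Cds2 were 1.03 and 0.71 higher, and Cds1 had -2.24 between 5.12 on Veh-SA, a background reading, and 7.36 on Veh-Sham.

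Regulators that act on these genes were also read. Of 8 measured, 4 were called lower, beside 15.3% of all genes, and 1 higher, beside 13.4%, in overload under GW4869, with a median of -0.49. With the median difference of the adipocyte markers taken off, 2 were lower, beside 5.37% of all genes, and 1 higher, beside 33.9%. Insig1, which holds back the lipogenic SREBP factors and is itself their target, had -1.33, Mlxipl, the glucose-sensing factor ChREBP, -1.24 and Cebpa, a factor of adipocyte identity, -0.86. Ppargc1a was the higher one, at 0.84. Under vehicle 8 of 8 were called higher, beside 30.2% of all genes, with Ppargc1a, a coactivator, at 1.92, Nr3c1, the glucocorticoid receptor, at 1.53 and Nr1h3, the oxysterol receptor LXR alpha, at 1.24. Centred on adipocyte markers 6 of 8 were, beside 14.3% of all genes, with a median of 0.75 against 1.10 as deposited. With GW-Sham in place of Veh-Sham, the array with sperm RNA, 4 of 8 were higher, beside 11.1% of all genes. In that contrast 0 were lower, beside 14.9%, and the median was 0.74. Ppargc1a then had 2.01 and Nr3c1 1.00, while Nr1h3 had 0.17 and was no longer called. For GW4869 in overloaded mice 8 of 8 were called lower beside 18.8% of all genes, and 4 of 8 beside 3.85% with the median difference of the adipocyte markers taken off. Ppargc1a at 6.98 and Mlxipl at 9.28 on Veh-Sham, among others, are near the control percentiles given above.

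**Figure D4:**
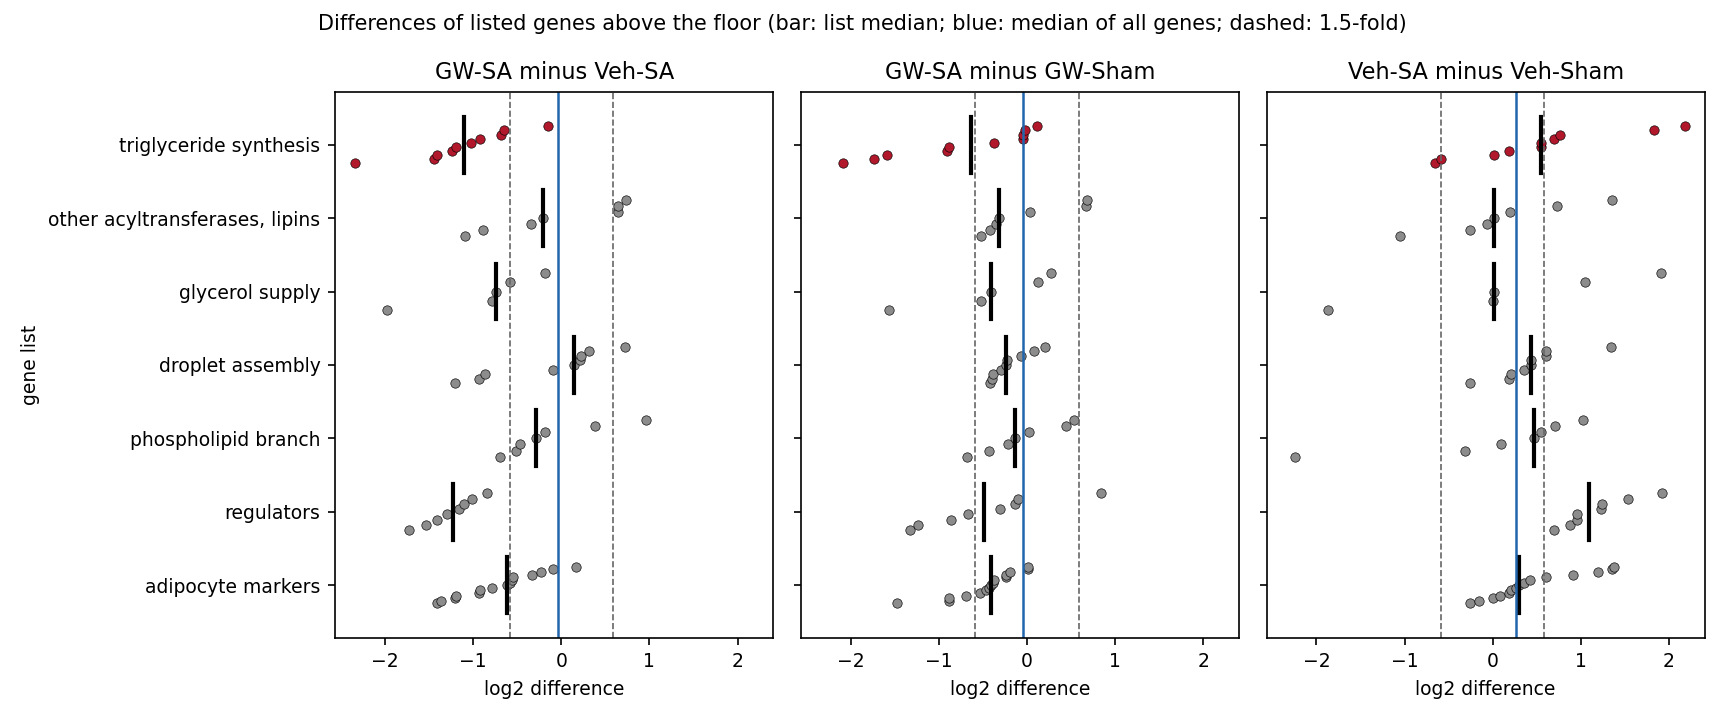
Log2 differences of listed genes above the floor (points) for GW-SA minus Veh-SA, GW-SA minus GW-Sham and Veh-SA minus Veh-Sham, with the list median as a black bar, the median of all genes as a blue line and 1.5-fold as dashed lines. The triglyceride synthesis medians are -1.10, -0.63 and 0.55, and those of the adipocyte markers -0.61, -0.41 and 0.30. The 2 acyl-CoA synthetases above the floor are not drawn.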

How the data were processed

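The deposited table holds log2 values that the authors made for each probe set; the submitters' processing notes name Partek and RMA. Versions, settings and the genome build of the probe sets were not found in these sources. The values reach 19.93 on the deposited log2 scale, and the step behind so high a scale was not identified. A platform annotation named 19572 probe sets with 1 gene, and where a gene had several, that of the highest mean was kept, which left 19505 genes. Groups came from the sample titles.

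Differences of log2 values were taken in Python 3.11.15 with numpy 2.4.6, pandas 2.3.3 and statsmodels 0.14.6. With 1 array per group no p-value was computed. The counting step was run on simulated arrays with planted changes well past the 1.5-fold cut, which checks the code alone. It does not show how sure a call on these arrays is. The members and lists were chosen with earlier results of these data known. Named were all 10 members, from each other list of the route up to 3 genes with the largest differences in each overload comparison, the 3 nearest genes to Dgat1, Dgat2, Gpam and Pck1, and a few tissue markers; others are named as examples beside a result, chosen after their values were seen. Alternatives changed the scaling between arrays, the floor, the treatment of low values, the probe set rule and the fold threshold. Gk, Acsl1, Acsl3 and Srebf1, on the lists, were not analysed here.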

Additional observations from a re-analysis of the deposited data

Results flagged for a closer look

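For 7 of the 10 genes the overload difference had opposite signs under GW4869 and under vehicle. None of these differences between injections was tested, because each group is 1 array. Opposite signs were not counted over all genes, so the count is not read as particular to the 10. Medians over all genes above the floor were -0.04 under GW4869 and 0.26 under vehicle. The overload difference under GW4869 minus that under vehicle was -2.50 log2 units for Mogat1, -2.20 for Dgat1, -1.89 for Gpam, -1.60 for Agpat2, -1.46 for Bscl2, -1.44 for Gpd1 and -0.55 for Lpin1. For Mogat1 alone were both differences past 1.5-fold, -1.74 under GW4869 and 0.76 under vehicle. Its difference under vehicle was 0.42 when centred on adipocyte markers and 0.39 with the trend on level removed, and 0 genes had both past 1.5-fold under either setting. Those of Gpam, Dgat1 and Agpat2 were within 0.05 of 0 under one of the injections, so that their sign there is set by small values. Centred on adipocyte markers, Gpam, Dgat1, Agpat2 and Lpin1 had 1 sign under both injections, Mogat1, Gpd1 and Bscl2 had opposite signs, and Agpat3, with 0.21 under GW4869 and a negative difference under vehicle, joined them, 4 genes in all.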

How the results depend on the processing

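Of 350 values of single genes recomputed under 7 alternatives fixed at the outset, 336 kept their side of 1.5-fold. Another 11 no longer passed it, 3 newly passed it and 0 changed the direction of a call. Dropping the floor, setting low values to it and averaging probe sets could not move any of these values. Each gene had 1 probe set and 0 readings under the floor, so many of the 336 were fixed beforehand. The median for overload under GW4869, -0.63, was -0.39 when centred on adipocyte markers, -0.51 after quantile normalization and -0.48 with the trend on level removed. At a 2-fold threshold 3 genes were called lower for overload under GW4869, and 2 higher and 0 lower for overload under vehicle. For GW4869 in sham mice 1 was higher and 0 lower, and for GW4869 in overloaded mice 6 were lower. The difference between overload differences had 7 negative and 0 positive. With the trend on level removed, 7 were lower at 1.5-fold for GW4869 in overloaded mice. Centred on adipocyte markers, 2 were higher for overload under vehicle, and 1 was higher and 2 were lower for GW4869 in sham mice. Centred on all genes above the floor, 1 was lower for overload under vehicle (Dgat2 had -0.56), and 0 were positive for the difference between overload differences. Other settings were chosen after seeing the data. Centring on all 19505 named genes adds 0.47 to differences of overload under vehicle and took their median to 1.02 with 7 higher and 0 lower; it left 0 lower for GW4869 in sham mice and 0 positive for the difference between overload differences. Veh-SA minus GW-Sham leaves out Veh-Sham, high in sperm markers, and GW-SA, high in epididymal markers. It mixes injection with surgery, and GW-Sham is high in the distal tract set while Veh-SA is not. This contrast gave 4 higher, 1 lower and a median of 0.33. Among the genes called, signs were opposite to overload under GW4869 for Mogat1 (0.61), Gpd1 (0.35) and Bscl2 (0.28). They were opposite to overload under vehicle for Agpat3 (0.11). Taking off the median difference of the adipocyte markers left 3 lower and a median of -0.22 for overload under GW4869, 2 higher for overload under vehicle, and 4 lower and a median of -0.50 for GW4869 in overloaded mice, and turned the difference between overload differences of Pck1, -0.59, to 0.24; the cause was not tested. No paired analysis was possible because each group has 1 array. Readings near the control rows limit Mogat1 and Dgat1.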
